A study of Homo sapiens with 20 samples.

Results

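PBS replicate 4, a control tumor library of a gluconate experiment, held a set of genes at levels far above those of every other library. The set was chosen by its own values in FPKM, fragments scaled for gene length and library size. A member had 0.5 FPKM or more as its mean over 8 libraries, at least 3 FPKM in PBS replicate 4, and there more than 4 times the highest of the other 7 libraries. The rule also left out a number of gene families and single genes by symbol, HOX, ribosomal protein and solute carrier genes among them. It kept 70 of the 24196 genes of the table, of which 12486 reached the line on the mean. Another 21 genes met the values and were left out by symbol. Since PBS replicate 4 picked the members, their excess there is given as a description and was not tested.

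The libraries were poly(A) RNA-seq of orthotopic tumors of OVCAR8, an established human line of high-grade serous ovarian carcinoma. OVCAR8 cells with the non-targeting guide sgNC and luciferase were placed in the ovarian fat pad of NSG mice aged 6 weeks, which lack T, B and natural killer cells but keep mouse stroma, vessels and myeloid cells. Tumors of the PBS group (4) served as controls for tumors under weekly intraperitoneal sodium gluconate (4), given at 1 mg/kg over 35 days. All tumors came from the same line, so no difference between patients enters.

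Homeobox proteins of the MEIS and PKNOX families bind DNA in complexes and act with HOX proteins to pattern the body axis, the limbs and the urogenital tract. RNA-binding proteins set how messenger RNAs are spliced, translated and degraded, and CCR4-NOT, the main deadenylase complex, shortens their poly(A) tails.

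PBS replicate 4 was also the shallowest library. The fragments behind the FPKM values could be recovered from the steps between them and summed, over the listed genes, to 3944893 in PBS replicate 4. The other 7 libraries held 39248707 to 46457636 fragments, and gluconate replicate 3, the next shallowest, was 9.95 times as deep. The part of depth in the results was not tested. Of the 12486 genes, 1714 (13.7%) were higher in PBS replicate 4 than in all other libraries and 7241 (58.0%) were lower than in all others.

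The 70 members together took 1.29% of the fragments of PBS replicate 4 (95% Wilson interval 1.28% to 1.31%). Their share in the other libraries lay between 0.153% in gluconate replicate 3 and 0.209% in PBS replicate 2. Intervals here and below cover counting error only. Summed over members, the level was 2597 FPKM in PBS replicate 4, 405, 428 and 327 in PBS replicates 1 to 3, and 343, 401, 319.7 and 330.5 in gluconate replicates 1 to 4. The high sum in PBS replicate 4 follows from the rule, and the other 3 PBS libraries overlapped with the gluconate libraries. Under the same rule each other library had few genes of its own. PBS replicate 3 had 4, with CES4A, GPR65 and UCA1 among them, gluconate replicate 1 had BOLA2B, gluconate replicate 2 had SMIM11, and the other 4 libraries had none. In the opposite direction, 9 genes had at least 3 FPKM in each other library and lay more than 4 times below the lowest of them in PBS replicate 4.

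Within the set, the ratio of PBS replicate 4 to the highest other library ran from 4.02 to 60.6, with a median of 6.97. It was over 10 for 29 members, 6 to 10 for 12 and under 6 for 29. Levels in PBS replicate 4 ran from 3.42 to 391 FPKM, and rested on 6 to 12706 fragments with a median of 305. In the other 7 libraries 26 members never reached 1 FPKM, while 8 were above 10 FPKM in each of them. So the set joins genes that were near 0 elsewhere with genes that were abundant everywhere.

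**Figure D1:**
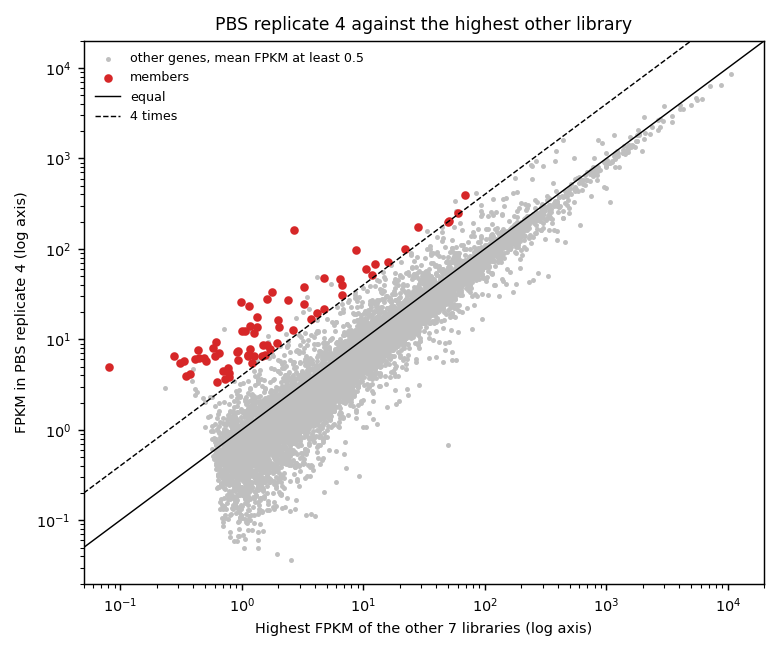
FPKM in PBS replicate 4 against the highest FPKM of the other 7 libraries, 1 point per gene that reached the line on the mean, on log axes. The solid line marks equal values and the dashed line 4 times; the 70 members (red) lie above the dashed line by choice, and gray points above it were left out by symbol or by the 3 FPKM line.

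Promoters from RefSeq (GRCh38.p14), 250 bases before to 50 after the start, were at hand for 55 of the 70 members (78.6%). That is below 80%, so a comparison of motif shares between members and all promoters was void. The 100 bases before the start are shown for 4 members, picked because they run from near 0 elsewhere (KCNK3, MAF) to abundant everywhere (DDX3X). Capitals mark motifs searched on both strands: the TATA box (TATAAA), the CCAAT box (CCAAT or ATTGG), the GC box (CCGCCC or GGGCGG), an E-box (CACGTG), an AP-1 site (TGACTCA or TGAGTCA) and a GLI site (GACCACCCA or its reverse complement). The stretches lie at chr16:79600738-79600837 (minus strand, MAF), chr2:66435025-66435124 (plus strand, MEIS1), chr2:26692622-26692721 (plus strand, KCNK3) and chrX:41333208-41333307 (plus strand, DDX3X).
MAF: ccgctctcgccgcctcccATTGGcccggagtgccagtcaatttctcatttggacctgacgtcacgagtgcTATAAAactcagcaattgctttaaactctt
MEIS1: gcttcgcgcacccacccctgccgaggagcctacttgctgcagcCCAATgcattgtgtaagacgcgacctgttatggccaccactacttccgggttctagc
KCNK3: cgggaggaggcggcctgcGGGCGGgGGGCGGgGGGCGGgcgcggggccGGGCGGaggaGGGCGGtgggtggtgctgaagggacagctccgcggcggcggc
DDX3X: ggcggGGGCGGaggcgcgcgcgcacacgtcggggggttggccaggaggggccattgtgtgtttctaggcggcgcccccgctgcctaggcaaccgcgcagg
MAF thus holds a TATA box and a CCAAT box, which 12.0% and 35.7% of 27305 promoters hold within 300 bases, and 5.24% and 36.7% of the 9994 promoters of expressed genes. MEIS1 shows a CCAAT box alone, and KCNK3 and DDX3X show GC boxes, which 44.6% of all and 71.2% of expressed genes' promoters hold. The E-box, AP-1 and GLI letters, found in 7.43%, 4.92% and 0.249% of promoters, are in none of the 4 stretches. So no motif is common to the 4, and a match of letters is description only.

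The homeobox group had 6 members. MEIS1, MEIS2 and PKNOX2 belong to a superclass of homeodomain partners of HOX proteins. EMX2 is needed for the cerebral cortex and the urogenital tract. The FPKM of EMX2 was 5.75 in PBS replicate 4, 0.118, 0.257 and 0 in the other PBS libraries and 0.229, 0.333, 0.00980 and 0.00901 in the gluconate libraries, in order of replicate. EMX2 was listed at 0 in PBS replicate 3 and had 1 fragment in each of gluconate replicates 3 and 4. Its ratio to the highest other library, gluconate replicate 2, was 17.3 (counting interval 11.3 to 26.8). MEIS1, with the CCAAT box shown above, reached the highest level of the group, 37.6 FPKM at a ratio of 11.5, and MEIS2 stood at 21.9 FPKM at a ratio of 4.58. PKNOX2 was at 6.15 FPKM, with 0.486 in PBS replicate 2 and 1 fragment in gluconate replicate 3. For MEIS1, MEIS2 and PKNOX2, PBS replicate 2 was the highest of the other libraries.

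The other transcription factors numbered 14. FOXP1 and FOXP2 are forkhead repressors, NFIA is a nuclear factor I protein of glial and stem cells, and MAF is a large basic leucine zipper factor. FOXP2 stood at 28.1 FPKM in PBS replicate 4, against 1.12, 1.61 and 0.381 in PBS replicates 1 to 3 and 0.271, 1.36, 0.268 and 0.358 in gluconate replicates 1 to 4. PBS replicates 1 and 2 and gluconate replicate 2 were the higher ones among the rest, all above 1 FPKM. The FPKM of NFIA was 9.26 in PBS replicate 4, 0.461, 0.618 and 0.242 in the other PBS libraries and 0.192, 0.430, 0.125 and 0.125 in the gluconate libraries, in order of replicate. For MAF the PBS libraries read 0.346, 0.410 and 0.136 FPKM in replicates 1 to 3 and 6.06 in replicate 4, and the gluconate libraries 0.201, 0.222, 0.0885 and 0.155. For NFIA and MAF, the latter with the TATA box shown above, no other library reached 1 FPKM, and the ratios were 15.0 and 14.8.

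THRA, the thyroid hormone receptor alpha, and NR1D1, the heme-binding clock repressor REV-ERB alpha, overlap tail to tail on opposite strands of chromosome 17. Their RefSeq spans are chr17:40062193-40093867 and chr17:40092793-40100589. THRA stood at 96.4 FPKM in PBS replicate 4, against 7.44, 8.79 and 3.04 in PBS replicates 1 to 3 and 3.81, 7.43, 3.15 and 3.55 in gluconate replicates 1 to 4. NR1D1 was at 48.3 FPKM in PBS replicate 4 and at 3.09 to 4.73 in the others. Whether the counting used strand is not given in the sources used here, so fragments of the shared stretch cannot be told apart between them. SOX4 is an HMG-box factor of progenitor cells. Its values were 9.87, 10.5 and 7.29 FPKM in PBS replicates 1 to 3, 60.1 in PBS replicate 4 and 7.34, 9.84, 8.31 and 6.53 in gluconate replicates 1 to 4. It was thus abundant in every library, and PBS replicate 4 stood 5.74 times above PBS replicate 2.

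The other 8 factors had ratios of 4.59 to 11.4. KLF9 is a Kruppel-like factor induced by glucocorticoid and thyroid hormone, and MEF2C a MADS-box factor of muscle and neurons. TCF4 is a basic helix-loop-helix E protein, and OSR2 an odd-skipped zinc finger factor of limb, palate and kidney development. BCL11A is the zinc finger repressor known for silencing fetal globin, ZNF513 a zinc finger protein of the retina, and HBP1 an HMG-box repressor of Wnt and cell cycle genes. Their levels in PBS replicate 4 ran from 4.25 FPKM for TCF4 to 31.3 for HBP1. Among the other libraries MEF2C was highest in gluconate replicate 4 and PBS replicate 1, at 0.933 and 0.932 FPKM.

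Transcription cofactors and chromatin proteins made up 7 members. LDB2 joins LIM-domain factors into complexes and SSBP2 protects such LDB proteins from degradation. CXXC4 binds unmethylated CpG and inhibits Wnt signaling, KDM6A is an X-linked histone demethylase, and MBD5 belongs to the methyl-CpG binding domain family. ING4 reads methylated histone H3 in an acetyltransferase complex, and PIAS2 is a SUMO ligase. ING4 stood at 51.4 FPKM in PBS replicate 4, against 11.1, 11.9 and 9.07 in PBS replicates 1 to 3 and 8.64, 11.8, 9.05 and 10.2 in gluconate replicates 1 to 4. The gene varied little among the other libraries, all between 8.64 and 11.9 FPKM. SSBP2, CXXC4 and LDB2 had ratios of 14.1, 11.5 and 11.0 from low levels, none above 1.07 FPKM elsewhere. KDM6A, PIAS2 and MBD5 were at 40.3, 4.48 and 7.77 FPKM, at ratios of 5.98, 6.33 and 4.53.

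RNA-binding proteins and regulators of mRNA decay and translation were 11 members, and they held the largest share of the summed level. Their FPKM summed to 1005 in PBS replicate 4 and to 155 to 195 in the others. DDX3X, an X-linked DEAD-box helicase that helps ribosomes scan structured leaders, was the most abundant member. Its values were 68.2, 68.0 and 58.1 FPKM in PBS replicates 1 to 3, 391 in PBS replicate 4 and 59.0, 65.1, 53.6 and 55.0 in gluconate replicates 1 to 4. The groups overlapped outside PBS replicate 4. With 12706 fragments its interval was narrow (384 to 397 FPKM), and the ratio to PBS replicate 1 was 5.73. MEX3C is an RNA-binding ubiquitin ligase. MEX3C stood at 173 FPKM in PBS replicate 4, against 27.7, 28.4 and 14.3 in PBS replicates 1 to 3 and 20.9, 27.3, 23.6 and 20.9 in gluconate replicates 1 to 4. PBS replicate 3 was lowest, and PBS and gluconate libraries overlapped.

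CNOT2 is a scaffold of the CCR4-NOT deadenylase and CNOT6L one of its catalytic subunits. The FPKM of CNOT2 was 71.0 in PBS replicate 4, 14.8, 15.2 and 13.1 in the other PBS libraries and 12.3, 16.0, 11.6 and 12.5 in the gluconate libraries, in order of replicate. Gluconate replicate 2 came next to PBS replicate 4, and the groups overlapped. CNOT6L was at 16.8 FPKM, 4.53 times the highest other library. UBAP2L is a stress granule protein. Its values were 19.8, 22.1 and 17.4 FPKM in PBS replicates 1 to 3, 100.1 in PBS replicate 4 and 17.1, 20.5, 16.8 and 16.8 in gluconate replicates 1 to 4. PBS replicates 2 and 1 and gluconate replicate 2 were its higher libraries after PBS replicate 4. PAIP2 binds poly(A)-binding protein and restrains translation. PAIP2 stood at 199.8 FPKM in PBS replicate 4, against 49.7, 49.1 and 45.6 in PBS replicates 1 to 3 and 47.7, 45.5, 41.7 and 43.7 in gluconate replicates 1 to 4. The 7 other libraries were close to each other, and at a ratio of 4.02 it was the member nearest the line.

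RBPMS and NOVA1 regulate splicing in smooth muscle and in neurons, and PTBP2 is the neuronal form of the polypyrimidine tract binding protein. CELF2 regulates splicing and stability, and CPEB4 lengthens poly(A) tails in the cytoplasm. RBPMS had the highest ratio of the 11, 11.9, at 14.0 FPKM. NOVA1, PTBP2, CELF2 and CPEB4 had ratios of 6.63, 4.76, 4.31 and 4.48, at 13.6, 12.6, 6.74 and 6.57 FPKM.

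**Figure D2:**
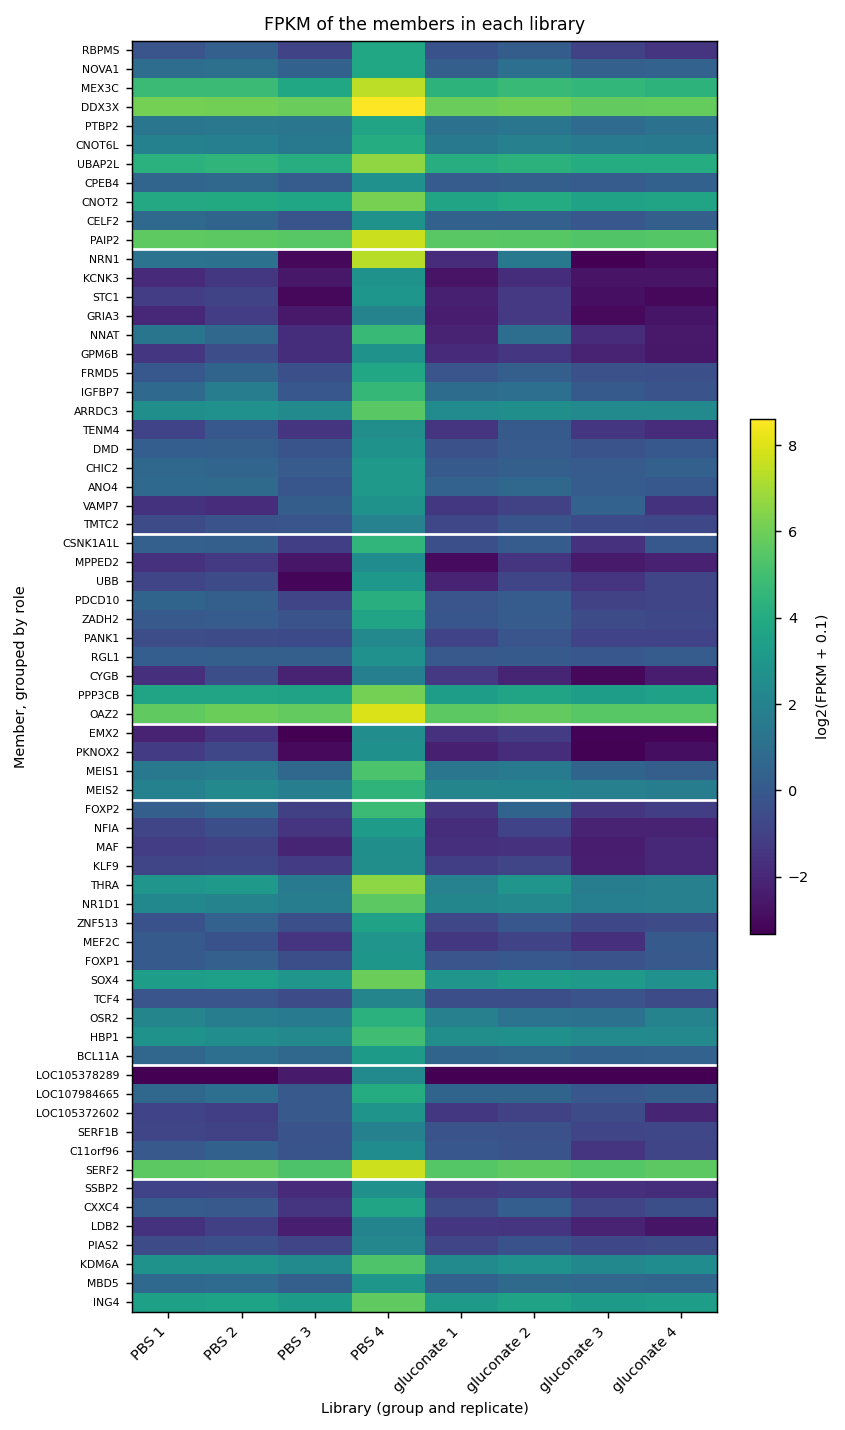
FPKM of 67 members in each of the 8 libraries as log2(FPKM + 0.1), with members in rows grouped by role and ordered by ratio within a role, and white lines between roles. PBS replicate 4 is the brightest column in every row, while rows differ in how dark the other 7 libraries are.

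Genes of the cell surface, of membranes and of the secreted space made up the largest group, with 16 members. NRN1, neuritin, is a lipid-anchored surface protein that promotes neurite growth, and its ratio was the largest among members resting on more than 6 fragments. NRN1 stood at 162 FPKM in PBS replicate 4, against 2.23, 2.17 and 0.0185 in PBS replicates 1 to 3 and 0.183, 2.71, 0 and 0.0259 in gluconate replicates 1 to 4. PBS replicates 1 and 2 and gluconate replicate 2 thus lay above 2 FPKM, and the other 4 libraries had 0 to 20 fragments. The gene lies at chr6:5997999-6007518, and its 1733 fragments in PBS replicate 4 gave an interval of 154 to 169.5 FPKM. The ratio to gluconate replicate 2 was 59.7 (counting interval 52.9 to 67.6).

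KCNK3 is a leak potassium channel, and GRIA3 a subunit of AMPA-type glutamate receptors. KCNK3, whose promoter stretch of GC boxes is shown above, had 0.175, 0.278 and 0.0720 FPKM in PBS replicates 1 to 3, 6.58 in PBS replicate 4 and 0.0554, 0.194, 0.0568 and 0.0560 in gluconate replicates 1 to 4. It was far below 1 FPKM in all libraries but PBS replicate 4. For STC1 the PBS libraries read 0.351, 0.439 and 0.0194 FPKM in replicates 1 to 3 and 7.59 in replicate 4, and the gluconate libraries 0.109, 0.290, 0.0394 and 0.0181. STC1 is stanniocalcin, a secreted hormone of calcium and phosphate balance, and its 3 highest libraries after PBS replicate 4 were PBS replicates 2 and 1 and gluconate replicate 2. GRIA3 was at 3.91 FPKM, 11.1 times its highest other library. GPM6B, a neuronal membrane glycoprotein, was at 6.61 FPKM with a ratio of 11.0. NNAT, an imprinted proteolipid of developing brain, was at 26.9 FPKM and spread widely elsewhere, from 0.0743 in gluconate replicate 4 to 2.42 in PBS replicate 1.

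IGFBP7, a secreted protein that binds insulin-like growth factors, and ARRDC3, an arrestin-like adaptor of receptor endocytosis, were at 24.8 and 47.0 FPKM. TENM4 is a teneurin adhesion protein, ANO4 a member of the anoctamin family of channels and scramblases, FRMD5 a FERM-domain protein and DMD dystrophin, which ties the cytoskeleton to the matrix. TMTC2 adds mannose to cadherins in the endoplasmic reticulum, CHIC2 is a palmitoylated protein of the plasma membrane and vesicles, and VAMP7 is a vesicle SNARE. Ratios of these 9 ran from 4.88 for TMTC2 to 10.4 for FRMD5. VAMP7 differed from the rest in the other libraries: it was at 1.26 FPKM in gluconate replicate 3 and 1.05 in PBS replicate 3, and at 0.187 to 0.416 in the remaining 5.

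Enzymes and signaling proteins were 10 members. PPP3CB is a catalytic subunit of the phosphatase calcineurin, and OAZ2 an antizyme that targets ornithine decarboxylase for degradation. PPP3CB had 12.5, 12.6 and 11.7 FPKM in PBS replicates 1 to 3, 68.7 in PBS replicate 4 and 10.1, 12.3, 10.4 and 11.2 in gluconate replicates 1 to 4. The FPKM of OAZ2 was 250.2 in PBS replicate 4, 51.7, 60.7 and 53.4 in the other PBS libraries and 48.4, 54.3, 46.0 and 45.4 in the gluconate libraries, in order of replicate. Both were evenly expressed outside PBS replicate 4. MPPED2 is a metallophosphodiesterase of fetal brain. MPPED2 stood at 5.44 FPKM in PBS replicate 4, against 0.225, 0.308 and 0.0636 in PBS replicates 1 to 3 and 0.0273, 0.24998, 0.0813 and 0.113 in gluconate replicates 1 to 4. Its lowest library, gluconate replicate 1, had 10 fragments.

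CSNK1A1L is an intronless copy of the kinase CSNK1A1, and fragments of either gene can be counted for the other, so its level is uncertain. For CSNK1A1L the PBS libraries read 1.15, 1.12 and 0.365 FPKM in replicates 1 to 3 and 23.1 in replicate 4, and the gluconate libraries 0.660, 1.02, 0.222 and 0.875. PBS replicates 1 and 2 and gluconate replicate 2 were above 1 FPKM, the other 4 below. CSNK1A1 itself was at 109 FPKM in PBS replicate 4 and 58.0 to 63.2 elsewhere. UBB encodes polyubiquitin, shares its repeats with other ubiquitin genes, and was at 8.13 FPKM at a ratio of 14.0, so its level is uncertain in the same way. PDCD10, a kinase adaptor of the cerebral cavernous malformation complex, was at 17.9 FPKM and ZADH2, a prostaglandin reductase, at 12.4, with ratios of 13.4 and 12.4. PANK1 makes phosphopantothenate for coenzyme A, RGL1 is an exchange factor for Ral, and CYGB is cytoglobin. Their ratios were 6.15, 5.81 and 5.46, and CYGB had the lowest level of all members in PBS replicate 4, 3.42 FPKM.

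The last 6 members were small or unnamed genes. SERF2 and SERF1B encode small basic proteins that modify amyloid formation. SERF2 had 48.8, 51.0 and 39.0 FPKM in PBS replicates 1 to 3, 206 in PBS replicate 4 and 44.6, 49.4, 43.5 and 48.8 in gluconate replicates 1 to 4. PBS replicate 3 was lowest and the groups overlapped. SERF1B was at 3.65 FPKM, and its near-identical copy SERF1A at 0.0563 to 0.225 FPKM over all libraries, so the split between them is uncertain. C11orf96, an open reading frame without a settled function, had a ratio of 4.54 over PBS replicate 2, and the next highest was PBS replicate 1. LOC105378289 and LOC105372602 are long noncoding RNAs in RefSeq. LOC105378289 stood at 4.91 FPKM in PBS replicate 4, against 0, 0 and 0.0811 in PBS replicates 1 to 3 and 0, 0, 0 and 0 in gluconate replicates 1 to 4. It was thus listed at 0 in 6 libraries. The ratio of 60.6 was the highest of all, but set 6 fragments against 1, with a counting interval of 7.35 to 2785. LOC105372602 had 10 fragments in PBS replicate 4, and LOC107984665, the only member with no RefSeq match, had 22.

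**Figure D3:**
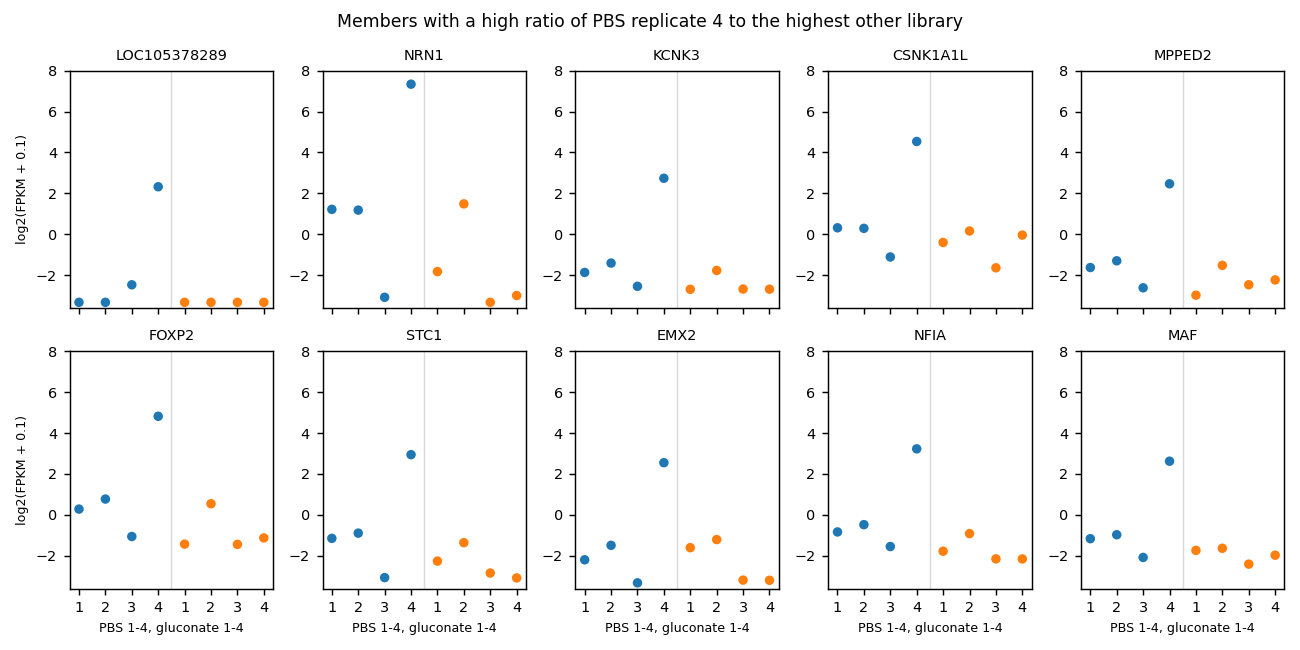
The 10 members described here with the highest ratio of PBS replicate 4 to the highest other library, as log2(FPKM + 0.1) in PBS replicates 1 to 4 (blue) and gluconate replicates 1 to 4 (orange). In most panels PBS replicates 1 and 2 and gluconate replicate 2 lie above the other libraries, below PBS replicate 4.

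At the line of 4 times, the 3 nearest members were PAIP2, SERF2 and OAZ2, at ratios of 4.02, 4.03 and 4.12. The 3 genes just short of it were LOC102724594, ZEB2 and IL13RA2, at 3.99, 3.94 and 3.89. ZEB2, a zinc finger repressor of epithelial genes, was at 33.6 FPKM in PBS replicate 4, 8.53, 8.43 and 4.70 in PBS replicates 1 to 3 and 5.89, 7.07, 5.94 and 5.57 in the gluconate libraries. IL13RA2, a decoy receptor of interleukin-13, was at 65.6 FPKM in PBS replicate 4, 9.80, 16.9 and 5.34 in PBS replicates 1 to 3 and 14.2, 2.08, 6.94 and 5.68 in the gluconate libraries. LOC102724594 was at 16.5 FPKM in PBS replicate 4, 1.17, 4.14 and 1.01 in PBS replicates 1 to 3 and 0.973, 0.856, 1.04 and 0.621 in the gluconate libraries. PBS replicate 2 was the highest of the others for LOC102724594 and IL13RA2, and PBS replicate 1 for ZEB2.

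The rule did not use which of the other 7 libraries was highest. Of the 70 members, 51 reached 0.5 FPKM as a mean of these 7 libraries, and the other 19 passed that line only through PBS replicate 4 and are not counted here. PBS replicate 2 was the highest of the 7 for 29 of the 51 members, PBS replicate 1 for 11 and gluconate replicate 2 for 6. Over the 12530 genes that reached 0.5 FPKM as a mean of these 7 libraries, the same 3 libraries were highest for 15.1%, 13.1% and 18.2%. At the other end, gluconate replicate 3 was lowest for 18 members, PBS replicate 3 for 12, gluconate replicate 4 for 9 and gluconate replicate 1 for 10. As shares these were 35.3%, 23.5%, 17.6% and 19.6%, against 9.37%, 25.7%, 19.8% and 14.9% of all genes, so gluconate replicate 3 departed most. High and low libraries were found in both groups.

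Against each member's own mean over the 7 libraries, on the log2(FPKM + 0.1) scale, the median of the 51 members deviated by 0.31 in PBS replicate 2, 0.22 in gluconate replicate 2 and 0.23 in PBS replicate 1. It deviated by -0.11 in gluconate replicate 1, -0.16 in gluconate replicate 4, -0.19 in PBS replicate 3 and -0.22 in gluconate replicate 3. Over all 12530 genes the same medians lay between -0.03 and 0.04. Among all 70 members, the homeobox genes EMX2 and PKNOX2 and the surface genes NRN1 and NNAT spread widely, while DDX3X, PAIP2, OAZ2 and CNOT2 stayed within a narrow range.

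**Figure D4:**
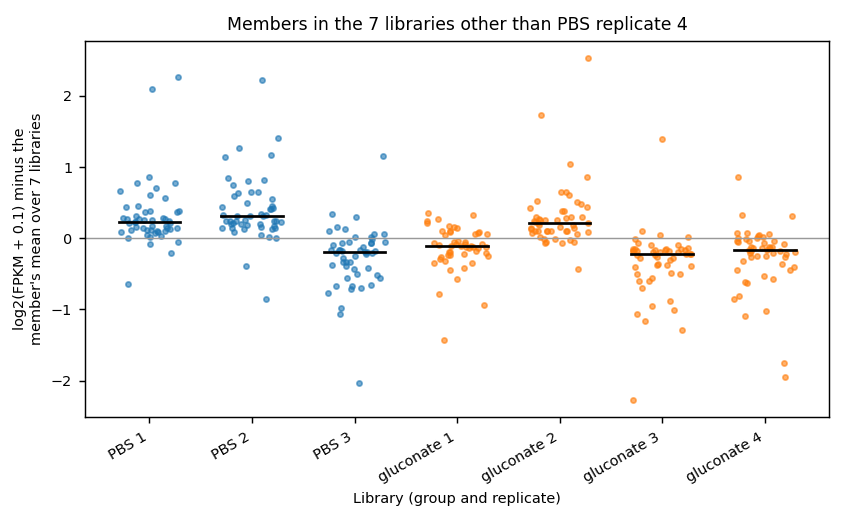
Deviation of each of 51 members from its own mean over the 7 libraries other than PBS replicate 4, on the log2(FPKM + 0.1) scale, 1 point per member, with PBS in blue, gluconate in orange and the median as a black bar. The medians run from -0.22 in gluconate replicate 3 to 0.31 in PBS replicate 2.

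Gluconate was compared with PBS on log2(FPKM + 0.1) with limma, without PBS replicate 4, so that its high values did not enter. The rule also used the highest of the other 7 libraries, whatever its group. The comparison is thus not fully independent of the rule. Fold changes on the log2(FPKM + 0.1) scale understate those of low genes. The same 51 members were tested. By limma, 0 of the 51 were lower and 0 higher by 2-fold or more with an unadjusted p under 0.05. Over all 12530 genes tested, 8 were lower (0.0638%) and 3 higher (0.0239%) by these lines. Without the line on the fold, 0 members and 778 of all genes (6.21%) had an unadjusted p under 0.05. These counts moved with single libraries: 17 of 50 members had such a p without PBS replicate 3, beside 520 (4.16%) of all genes, and 12 of 51 without gluconate replicate 2, beside 797 (6.38%). With limma's voom on the recovered fragments, 0 members passed both lines and 2 had an unadjusted p under 0.05, beside 10 genes lower, 4 higher and 760 (6.07%) with such a p among all genes.

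The members' differences were mostly small and negative. Their median was -0.19, against -0.00 for all genes tested, and 45 of the 51 were below 0, as were 50.9% of all genes. Members rose and fell together over libraries, so the 51 are not independent of each other. Within a group, the members' median varied between libraries with an SD of 0.23 log2. A shift of the set was not tested. The widest differences belonged to NNAT, -1.47 ± 0.90 (SE), and NRN1, -1.44 ± 1.29 (SE), with adjusted p values of 0.81 and 0.83 from limma with Benjamini-Hochberg adjustment over all genes. For both genes PBS replicates 1 and 2 and gluconate replicate 2 were high and the groups overlapped. Among the abundant members, DDX3X differed by -0.15 ± 0.09 (SE), OAZ2 by -0.19 ± 0.08 (SE), PPP3CB by -0.15 ± 0.08 (SE) and MEX3C by 0.04 ± 0.22 (SE), with adjusted p values from limma of 0.81, 0.80, 0.81 and 0.98.

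With PBS replicate 4 in the fit, all 70 members were below 0 at a median of -1.0, which follows from how they were chosen. Of these, 1 passed both lines as lower, C11orf96, beside 13 of all 12486 genes (0.104%), and 24 genes (0.192%) passed as higher. At an unadjusted p under 0.05 alone there was 1 member, beside 577 genes (4.62%). The count of C11orf96 rests on PBS replicate 4, and without it the gene had -0.72 ± 0.33 (SE) at an adjusted p of 0.81 from limma.

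**Figure D5:**
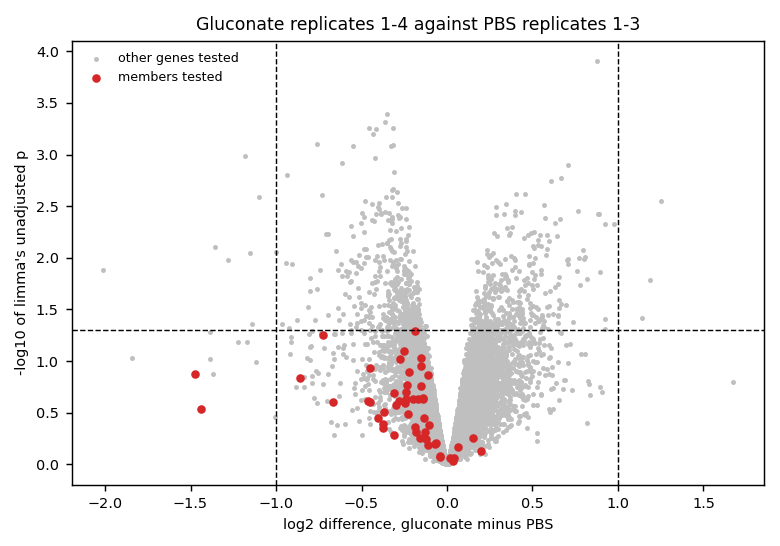
Log2 difference of gluconate replicates 1 to 4 minus PBS replicates 1 to 3 against the negative log10 of limma's unadjusted p, for 51 members (red) and the other genes tested (gray). Dashed lines mark a p of 0.05 and differences of 2-fold; no member lies beyond both.

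Gene families were listed by symbol, and members were 70 of all 12486 genes that reached the line on the mean (0.561%). Of 40 forkhead genes in the table, 22 reached 0.5 FPKM as a mean, and FOXP1 and FOXP2 were members (9.09% of the 22), while 1 more met the values and was left out by symbol. SOX genes had 1 member (SOX4) of 6 with that mean, Kruppel-like factors 1 (KLF9) of 13, nuclear receptors 2 (THRA and NR1D1) of 24 (8.33%), and potassium channels 1 (KCNK3) of 20. Homeobox genes outside the HOX clusters had 5 of 45 (11.1%) by the narrowed symbol pattern and 5 of 71 (7.04%) by the pattern as first written. These shares were not tested, since the lists were written with earlier results of these data known. No member came from the T-box, GATA, PAX, WNT and Frizzled, Hedgehog, FGF, calcium and sodium channel, cadherin, collagen, histone, heat shock or immediate early genes. Collagen genes were lower in PBS replicate 4 than in every other library for 13 of 17, beside 58.0% of all 12486 genes. Collagen genes summed to 495, 579, 484 and 304 FPKM in PBS replicates 1 to 4 and 522, 587, 573 and 567 in gluconate replicates 1 to 4. Histone genes summed to 2014 FPKM in PBS replicate 4 and 1143 to 1283 elsewhere. H2AZ1 alone made up 1599 FPKM there and 705 to 851 elsewhere. Of 18 histone genes that reached the line on the mean, 10 were below all other libraries in PBS replicate 4 and 3 above. The shares over all 12486 genes were 58.0% below and 13.7% above.

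Markers of cell types were read from 11 lists, and in bulk RNA fewer cells of a type and less RNA per cell cannot be told apart. Host cells are mouse and the table lists human symbols only, so the sums cannot be read as amounts of host cells. Whether the tumor cells made these RNAs was not tested. PBS replicate 4 was the shallowest library, so a gene listed at 0 there may have been missed. The fibroblast and stroma list, 12 genes of which 7 reached 0.5 FPKM as a mean, summed to 371, 441, 353 and 213 FPKM in PBS replicates 1 to 4 and 395, 465, 509 and 532 in gluconate replicates 1 to 4. It was thus lowest in PBS replicate 4, where 6 of the 7 were below all other libraries, SPARC was the most abundant, and COL1A2 and PDGFRA were listed at 0. Of all 12486 genes that reached the line on the mean, 58.0% were below all other libraries there and 13.7% above. The smooth muscle and pericyte list (6 of 10) summed to 55.3, 40.9, 34.6 and 30.7 FPKM in PBS replicates 1 to 4 and 44.6, 59.3, 63.8 and 73.1 in gluconate replicates 1 to 4, and was lowest in PBS replicate 4 as well. TAGLN, the most abundant by mean, carried that low sum with 7.18 FPKM against 14.4 to 53.5, and of the 6 genes 3 were below and 1 above all other libraries there.

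Adipocyte markers (2 of 7) summed to 8.29, 9.72, 7.72 and 14.5 FPKM in PBS replicates 1 to 4 and 7.82, 6.71, 9.37 and 8.64 in gluconate replicates 1 to 4. LPL made up most of that sum, while PLIN1, FABP4 and CIDEC were listed at 0 in PBS replicate 4. Neural and Schwann cell markers (2 of 9) summed to 109, 97.8, 138 and 119 FPKM in PBS replicates 1 to 4 and 92.4, 95.1, 107 and 102 in gluconate replicates 1 to 4. That list was led by TUBB3, and SOX10, S100B and STMN2 were among those listed at 0 in PBS replicate 4. The adipocyte sum was thus highest in PBS replicate 4, and the neural sum lay within the range of the others.

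Myeloid markers (3 of 10) summed to 29.9, 29.7, 32.0 and 30.4 FPKM in PBS replicates 1 to 4 and 28.3, 24.9, 31.2 and 27.4 in gluconate replicates 1 to 4, led by CD68, with CD14, LYZ, PTPRC and MRC1 at 0 in PBS replicate 4. Endothelial markers (2 of 10) summed to 6.96, 7.19, 11.7 and 5.15 FPKM in PBS replicates 1 to 4 and 5.96, 9.32, 7.16 and 9.28 in gluconate replicates 1 to 4, led by ESAM, with CDH5, KDR and CLDN5 at 0 there. Mesothelial markers (5 of 7) summed to 139, 123, 128 and 128 FPKM in PBS replicates 1 to 4 and 148, 116, 161 and 181 in gluconate replicates 1 to 4, led by MSLN, with KRT19 at 0 there. In these lists PBS replicate 4 lay within the range of the others or, for endothelial markers, below it.

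Oviduct or uterus epithelium markers (6 of 11) summed to 1344, 1789.7, 2113 and 1735 FPKM in PBS replicates 1 to 4 and 1573, 1275, 1367 and 1617 in gluconate replicates 1 to 4, led by KRT8, with FOXJ1 and MUC16 at 0 in PBS replicate 4. Of these 6 genes, 4 were below all other libraries there and 0 above, beside 58.0% and 13.7% of all genes. Granulosa and theca markers (1 of 12) summed to 3.05, 3.39, 4.27 and 2.46 FPKM in PBS replicates 1 to 4 and 1.83, 2.67, 2.40 and 3.37 in gluconate replicates 1 to 4, led by AMH. The defining FSHR, AMHR2, CYP19A1, CYP17A1, STAR and NR5A1 were at 0 in PBS replicate 4, along with INHA, HSD3B2 and GATA4. At the low depth of that library, a listed 0 does not show that a gene was absent. Skeletal muscle markers summed to 0.0413 FPKM in PBS replicate 4 and 0.0553 to 1.48 elsewhere, led by MYH2, and red blood cell markers, led by HBA1, to 0 and to 0 to 0.340. No gene of either list had a mean FPKM of 0.5. The part of the cell type markers in the members' levels was not tested.

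By position the members lay on 20 chromosomes. Of the 69 matched to RefSeq, 8 (11.6%) were on the X chromosome, against 3.36% of 12363 matched genes that reached the line on the mean. GRIA3, GPM6B, DMD, DDX3X, KDM6A and VAMP7 were among these. The median gene spanned 65.7 kb among members and 28.4 kb among all, and 31 members (44.9%) spanned over 100 kb, against 16.9%. The length behind the FPKM, read from the value of 1 fragment, had a median of 5.18 kb among members and 3.97 kb among all. Members with long spans included FOXP2, DMD, TENM4 and NFIA, and UBB and SOX4 were compact. Of the 69, 67 were protein coding.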

How the data were processed

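RNA-seq of 8 OVCAR8 tumors was read from the FPKM table that the authors deposited. The notes of the submitters name GRCh38, and the aligner, counting, strand use and scaling are not given in the sources used here. The table does not name its column letters. C was read as PBS and T as gluconate from the axis of a plot in the study, and the name PBS replicate 4 rests on that reading. Where the sources speak both of cells and of tumors, the sample labels (tumors) were followed. The 12 libraries of knockout cells and their sgNC controls were not used.

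Within a tolerance of 1e-06 of the count, every value was a whole number of fragments, and recovered fragments gave the depths, 95% Poisson intervals and exact binomial intervals of ratios. Groups were compared on log2(FPKM + 0.1) with limma 3.58.1 (lmFit, eBayes with trend) in R 4.3.3, for genes at 0.5 FPKM or more as a mean of the libraries compared. Calling took an unadjusted p under 0.05 and a 2-fold difference. The fit was run on simulated data with changes well beyond the 2-fold line and the same dispersion for every gene. There every changed gene and no unchanged gene was called. This checked the calculation only and does not show how the fit performs at the spread of the tumor libraries. Other steps used Python 3.11.15 with numpy 2.4.6, scipy 1.17.1, pandas 2.3.3 and matplotlib 3.10.9. Members, roles and lists were chosen with earlier results of these data known. The homeobox symbol pattern also caught other genes such as ENO1 and was narrowed after its values were seen. Some members and other genes are counted but not reported here by name.

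Alternatives were other pseudocounts, filters, scalings and lines of the rule, voom, a block for the replicate number, and fits without 1 library. PBS replicate 4 lay at a median ratio of -0.24 log2 (factor 0.844), which scaling by median ratios divides out and so raises its values.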

Additional observations from a re-analysis of the deposited data

Results flagged for a closer look

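Within a group of 4 libraries, a library was looked at again where its gap to the nearest other took up more of the group's range than Dixon's 95% critical value allows. Of 50 groups of values looked at, 8 held such a library. Chance sets apart about 1 in 20 groups of independent, normally spread values. Groups here share the same libraries and members vary together, so the count cannot be judged against that rate. The PBS values of the members were not examined in this way, because the rule that chose the members fixes them.

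PBS replicate 4 had 3944893 fragments, against 39803633 to 46457636 in the other PBS libraries. It had 15514 genes above 0, against 20014 to 20117.

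Single members were looked at only where their level or ratio was among the highest, 21 members in all, so others may stand apart too. Among these 21, gluconate replicate 2 stood above the other gluconate libraries in 5. NRN1 was at 2.71 FPKM there, against 0 to 0.183. UBAP2L was at 20.5 FPKM, against 16.8 to 17.1. THRA was at 7.43 FPKM, against 3.15 to 3.81. KCNK3 was at 0.194 FPKM, against 0.0554 to 0.0568. FOXP2 was at 1.36 FPKM, against 0.268 to 0.358.

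Gluconate replicate 4 had a sum of 1.48 FPKM of skeletal muscle markers, against 0.0553 to 0.138 in the other gluconate libraries.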

How the results depend on the processing

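The 70 members became 119 with a ratio over 3 and 31 with a ratio over 8, and 35 of them had at least 10 FPKM in PBS replicate 4. Scaling by median ratios gave 108 genes, all members among them. Quantile normalization gave 88, and 69 members stayed. With the lower 95% Poisson limit of PBS replicate 4 over 4 times every other library's upper limit, 52 members stayed. PAIP2, SERF2 and OAZ2 were not among the 52. Leaving out 1 of the other libraries gave 70 to 78. With no symbol left out, a setting added after the data were seen, the rule gave 91.

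Without PBS replicate 4, 8 genes were lower and 3 higher. A pseudocount of 1 gave 0 and 1, and a pseudocount of 0.01 gave 6 higher. No filter gave 15 and 18, a mean of at least 1 FPKM gave 5 and 1, and an adjusted p under 0.05 gave 0 and 0. Leaving out 1 more library gave 8 to 29 lower and 4 to 21 higher, and the most came without PBS replicate 1. The members' median stayed negative in 14 of 14 other settings that kept the filter on low values, from -0.33 to -0.11 when 1 library was left out. These settings reuse the same libraries and members, so they are not independent of each other. Among members, 4 were lower without PBS replicate 3 (17 at an unadjusted p under 0.05), beside 14 and 520 of all genes. Without gluconate replicate 2 they were 3 and 12, beside 12 and 797, and the cause was not tested.

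With all 8 libraries, 13 were lower and 24 higher. A pseudocount of 1 gave 3 and 5, and no filter gave 61 higher. Leaving out 1 library gave 6 to 46 lower, the most without PBS replicate 3, and 3 to 63 higher, the most without PBS replicate 1 and the fewest without PBS replicate 4. Members lower, which the choice of members favors here, went from 1 to 21 of the 46 without PBS replicate 3.

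With the replicate number as a replicate block, 11 were lower and 10 higher without PBS replicate 4, 15 and 32 with all 8, and the members' median was -0.15 with 4 members at an unadjusted p under 0.05 in the former. Deviations from the group mean correlated between libraries of the same number at -0.18, 0.08, 0.17 and -0.06 across genes. PBS replicate 1 correlated best with gluconate replicate 4 (0.16), so equal numbers do not always go together and may be only numbers.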

Other observations

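Relatives of the members by name were picked after the members were seen, so a relative that met the rule would already be a member. Of 90 such genes in the table, 71 reached 0.5 FPKM as a mean. In PBS replicate 4, 23 of the 71 (32.4%) were above all other libraries, against 13.7% of all genes at that mean, and 5 were over 2 times. Their median ratio was 0.805, and the highest among the 71 was 2.80, for CPEB2, a relative of CPEB4 that also binds cytoplasmic polyadenylation elements. This was not tested.

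The 8 libraries come from 1 cell line and 1 treatment, and PBS replicate 4 is a single tumor. No other library repeats it, so nothing here says how often such a profile arises. Values are whole-tissue levels, and the table lists human symbols only, so what became of mouse fragments is unknown. Some low members rest on few fragments, and the ratios of these carry wide counting intervals. Genes with close copies and the overlapping pair THRA and NR1D1 cannot be separated with the table at hand.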
